A study of Homo sapiens with 11 samples.

Results

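The complement genes described here are C3 and CFB, C1R and C1S, the soluble regulators SERPING1 and CFI, and the membrane regulators CD46, CD55 and CD59. They were chosen by symbol, as 9 of the 60605 features of the table, and 7 of them were among the 18828 features with enough signal to be tested. CFB and CFI did not pass that filter. Polyadenylated RNA was sequenced from ARPE-19, an established cell line of human retinal pigment epithelium (RPE), after 4 days of expression of an open reading frame in stable lines. The control line expressed GFP, a fluorescent protein, and had 3 libraries. The Oct4, Sox2 and Klf4 lines each expressed that single transcription factor, the OSK line expressed all of them, and each of these lines had 2 libraries. The library names of all factor lines carry the tag mC, which those of the GFP control lack, and the names do not explain it. Whatever it stands for cannot be told apart from the factors in comparisons with GFP. The species of the reading frames, the promoter that drove them and any batch are not given in the sources used here. The labels do not say that the libraries of a group came from separate cultures, so p-values measure only the spread between these libraries, which may be technical. Each line is also a single stable line as far as the labels show, so the factor and the line cannot be told apart.

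Complement is a cascade of blood and tissue proteins that marks surfaces for removal and can pierce membranes. The classical pathway starts when C1q binds a surface and activates the proteases C1r and C1s. All pathways meet at C3, whose cleavage product C3b binds surfaces and, with factor B, forms the enzyme that cleaves more C3. C1 inhibitor, encoded by SERPING1, blocks C1r and C1s. Factor I, encoded by CFI, destroys C3b with the help of cofactors such as CD46. CD55 breaks up the C3-cleaving enzymes and CD59 blocks the final membrane pore. Host cells carry these last regulators on their surface. The RPE lies behind the photoreceptors, and complement at this layer has long been studied in age-related macular degeneration.

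Values are normalised counts, meaning read counts that were scaled by a single factor in each library. Library totals ranged from 15053300 to 19791775 reads, and 25853 to 26971 features were detected in 9 libraries. GFP replicate 1 (42956 features) and OSK replicate 1 (32493 features) stood apart. Calls against GFP that they decide are given with and without them beside the gene. The delivered factors were highest in the lines labelled for them: POU5F1, the gene of Oct4, was 67326 and 66823 in Oct4 and 19020 and 19542 in OSK, against 252 to 276 in GFP. SOX2 was 29106 and 29141 in Sox2 and 17764 and 17582 in OSK, against 43.7 to 82.4 in GFP, and KLF4 was 24205 and 22142 in Klf4 and 24470 and 24202 in OSK, against 45.5 to 124 in GFP. Of 12 RPE marker genes, 10 passed the filter. Their summed level was 33430 to 37122 in GFP and lower in every factor line, down to 15811 and 16115 in OSK. More than any others, the keratins KRT8 and KRT18, which other epithelia also express, carry that sum, with means of 15930 and 5307 in GFP. The pigment genes were lowest in Sox2, where PMEL had a mean of 140.4 and TYRP1 of 134, against 809 and 816 in OSK and 5147 and 2491 in GFP. OTX2 had a higher mean in Klf4 (2319.6) and OSK (1969.5) than in GFP (1881). The defining RPE genes RPE65 and TTR were near 0 in all libraries, at most 4.63 and 4.97. The part of this marker change in the complement values was not tested.

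C1R and C1S, the proteases of the C1 complex, fell with Oct4, fell further with Sox2, and rose with Klf4 and with OSK. C1R was 3146, 3197 and 3629 in GFP, 1393 and 1752 in Oct4, 678 and 825 in Sox2, 6618 and 4702 in Klf4, and 7285 and 6110 in OSK. All Oct4 and Sox2 libraries lay below all GFP libraries, and all Klf4 and OSK libraries lay above them. The group means were 3324 ± 265 (SD, n = 3) in GFP, 1573 ± 254 (n = 2) in Oct4, 752 ± 104 in Sox2, 5660.1 ± 1355 in Klf4 and 6697 ± 831 in OSK. Against GFP, limma on log2(value + 1), with adjustment over all 18828 features, gave a log2 change of -1.09 (SE 0.14, adjusted p = 9.69e-06) for Oct4. For Sox2 it was -2.15 (limma adjusted p = 3.38e-09), so that the GFP mean was 4.42-fold higher. The Klf4 change was 0.75 (limma adjusted p = 0.000439) and the OSK change 1.01 (limma adjusted p = 1.84e-05), a 2.01-fold higher mean in OSK. In bulk RNA, fewer cells that express a gene and less RNA of it per cell cannot be told apart, here or below.

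C1S followed the same order below GFP. It was 2138, 2038 and 2418 in GFP, 819.8 and 1099.9 in Oct4, 238 and 390.45 in Sox2, 5137 and 3523 in Klf4, and 4222 and 3588 in OSK. Again no Oct4 or Sox2 library reached a GFP library, and no GFP library reached a Klf4 or OSK library. The log2 changes from GFP were -1.21 (SE 0.18, limma adjusted p = 7.61e-05) with Oct4 and -2.84 (4.59e-09) with Sox2, where the GFP mean was 7.0-fold higher. Klf4 gave 0.96 (limma adjusted p = 0.00075) and OSK 0.83 (limma adjusted p = 0.00182). With GFP replicate 1 and OSK replicate 1 left out, the OSK change was 0.69 and no longer passed (limma adjusted p = 0.0742). The protease genes moved nearly in step, with a Pearson r of 0.989 between their log2 values over 11 libraries. Those points share 5 groups and the normalisation factors, so r is a description only. The ratio of C1S to C1R nevertheless ran lowest in Sox2 (0.351 and 0.473) and highest in Klf4 (0.776 and 0.749), with GFP at 0.638 to 0.68, Oct4 at 0.588 and 0.628, and OSK at 0.58 and 0.587.

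Klf4 and OSK were neighbours at the top for each protease. For C1R the difference of OSK from Klf4 was 0.26 on the log2 scale (95% interval -0.06 to 0.57, limma adjusted p = 0.257), and for C1S it was -0.13 (95% interval -0.56 to 0.30, limma adjusted p = 0.722). The libraries of both lines overlapped for each gene. Klf4 replicate 1 was the higher Klf4 library for both genes, and without it the C1R difference was 0.50 (limma adjusted p = 0.0399). In GENCODE release 29 (GRCh38), C1R lies on chr12:7080199-7092607 on the minus strand and C1S on chr12:6988259-7071032 on the plus strand, so they are near neighbours on opposite strands. Of the exon bases of C1R, 11.42% are shared with C1RL on the same strand, and of those of C1S 3.54% are shared with EMG1. How reads in such bases were counted is not stated. C1RL itself ran from 806 to 1316 and passed in no line with all libraries. In Sox2 its change was -0.23 (limma adjusted p = 0.0959), which passed without GFP replicate 1 (-0.31, 0.0193), without that library and OSK replicate 1 (0.0434) and without Sox2 replicate 2 (0.0457). In Klf4 it was 0.24 (limma adjusted p = 0.0878), which passed without GFP replicate 3 (0.038) and with the replicate number as a block (0.0373).

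**Figure D1:**
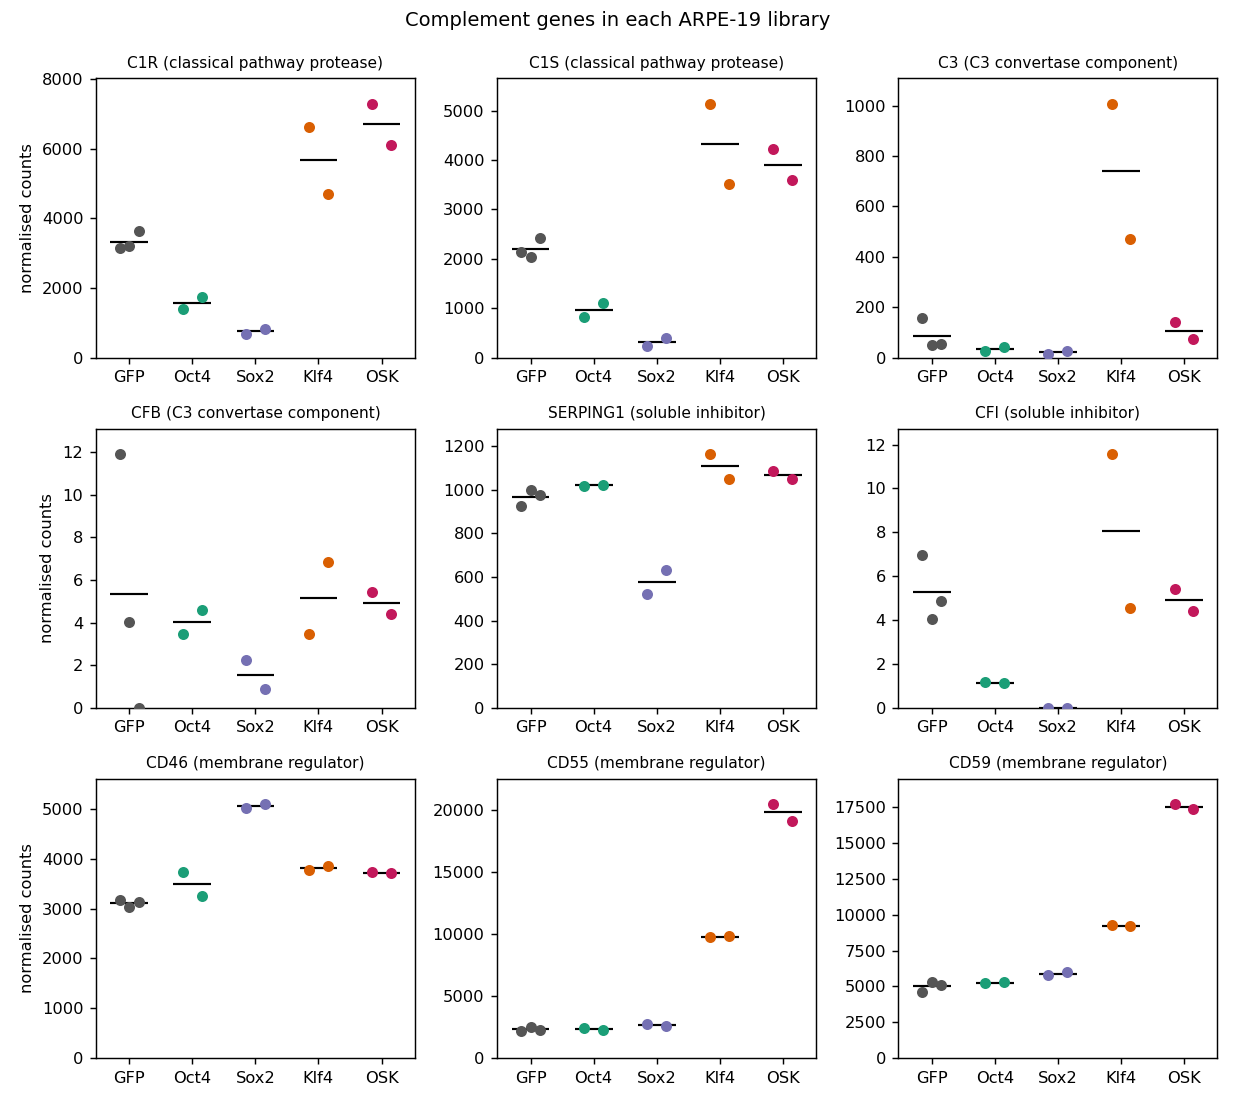
Normalised counts (y axis, linear, from 0) of the 9 complement genes in each library (dots) by line (x axis), with a line at each group mean. C1R and C1S were lowest in Sox2, C3 was highest in Klf4, CD55 and CD59 were highest in OSK and next in Klf4, and CD46 was highest in Sox2.

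C3, the component on which all pathways converge, was high in the Klf4 line and not in the OSK line, which carries KLF4 at a like level. C3 was 159, 49.6 and 53.5 in GFP, 26.7 and 41.2 in Oct4, 15.7 and 28.3 in Sox2, 1007 and 471 in Klf4, and 139.8 and 74.8 in OSK. The Klf4 libraries lay above all others, the Sox2 and Oct4 libraries lay below all GFP libraries, and the OSK libraries fell within the GFP range. The 11 libraries held 14 to 871 C3 reads each. With Klf4 the log2 change from GFP was 3.18 (limma adjusted p = 4.8e-05), an 8.47-fold higher mean that placed C3 136th from the top among the 18828 features. The fold of means rests on single libraries: it was 14.3 without GFP replicate 1 and 5.39 without Klf4 replicate 1. With Sox2 it was -1.78 (limma adjusted p = 0.00469), and without Sox2 replicate 1 it was -1.38 and did not pass (limma adjusted p = 0.0865). The GFP mean was 3.97-fold that of Sox2, and 2.34-fold without GFP replicate 1.

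C3 also varied widely within groups. GFP replicate 1 held about the level of OSK replicate 1, above the other GFP libraries, and those are the libraries that stood apart by detected features. The Oct4 change was -1.15 (SE 0.45) and missed the threshold (limma adjusted p = 0.0577). It passed under 5 of the 23 alternative analyses, with the lowest limma adjusted p, 0.0251, after TMM scaling over all features. Over the alternatives the Oct4 change ran from -1.46 to -0.62. Without GFP replicate 1 it did not pass, and the GFP mean was 1.52-fold that of Oct4, against 2.57-fold with all libraries. OSK differed from GFP by 0.44 (95% interval -0.52 to 1.41, limma adjusted p = 0.487). Without GFP replicate 1 that difference was 0.98 (limma adjusted p = 0.0358), and without OSK replicate 1 it was -0.01 (limma adjusted p = 0.996). The difference of OSK from Klf4 was -2.74 on the log2 scale (limma adjusted p = 0.00074), a 6.89-fold higher mean in Klf4, or 4.39-fold without Klf4 replicate 1. Markers of macrophages, cells that make C3, were examined beside it. Of 8 such genes 1 passed the filter, CSF1R, and their summed level was 164 to 201 in GFP and 163 to 290.3 in Klf4. PTPRC, AIF1, TYROBP, C1QA, C1QB and C1QC were at 0 in both Klf4 libraries. C1QA, C1QB and C1QC were also at 0 in Oct4 and Sox2. They reached at most 23, 7 and 4 reads in a GFP library and 4, 2 and 1 reads in an OSK library. Hepatocyte markers summed to at most 37.4 in any library. The part of CSF1R-expressing cells in the C3 values was not tested.

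CFB, the protease subunit that joins C3b, and CFI, the protease that destroys it, were at the edge of detection. CFB had 12, 4 and 0 reads in GFP, 3 and 4 in Oct4, 2 and 1 in Sox2, 3 and 6 in Klf4, and 5 and 4 in OSK. CFI had 7, 4 and 5 reads in GFP, 1 and 1 in Oct4, 0 and 0 in Sox2, 10 and 4 in Klf4, and 5 and 4 in OSK. These are 44 and 41 reads in all, and no difference in CFB was detectable at this depth. With no filter on low values, limma gave CFI an adjusted p of 0.0435 for Sox2 against GFP. With Sox2 set at a floor of 3 reads per library, the GFP mean of CFI, 5.29, was 1.78-fold higher. That GFP mean itself rests on 7, 4 and 5 reads, so the fold is not a firm lower bound. The annotation bears on these low values. In GENCODE release 29, 45.47% of the exon bases of CFB (chr6:31945650-31952084) are shared with C2 and a readthrough gene, and 32.04% of those of CFI (chr4:109740694-109802179) with another readthrough gene. Those readthrough genes were listed at 0 in all 11 libraries and C2 at 2.31 to 17.3. Reads that fall in shared bases may have been left uncounted, and their part in the low values was not tested.

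SERPING1, which encodes C1 inhibitor, fell with Sox2 alongside its target proteases, and no other line passed the test against GFP. It was 926, 996 and 974 in GFP, 1018 and 1019.8 in Oct4, 523 and 633 in Sox2, 1164 and 1050.1 in Klf4, and 1085 and 1048 in OSK. Only the Sox2 libraries stood below GFP, with means of 578 ± 77.7 (SD, n = 2) against 965 ± 36.3 (n = 3). The log2 change was -0.75 (limma adjusted p = 3.04e-06), a 1.67-fold higher mean in GFP. The other lines lay slightly above GFP without overlap, and their changes were 0.08 (limma adjusted p = 0.511) for Oct4, 0.20 (0.0929) for Klf4 and 0.14 (0.204) for OSK. The 95% interval of the OSK change, -0.04 to 0.33, lay below the C1R change in that line. The gene lies on chr11:57597387-57614853 and shares no exon bases with another gene.

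The membrane regulators CD55 and CD59 rose strongly in OSK and less so in Klf4, whereas CD46 was highest in Sox2. CD55, which speeds the decay of the C3-cleaving enzymes, was 2172, 2484 and 2272 in GFP, 2414 and 2281 in Oct4, 2772 and 2594 in Sox2, 9769 and 9799 in Klf4, and 20478 and 19128 in OSK. The Klf4 and OSK libraries stood clear of all others and of each other. Group means were 2309 ± 159 (SD, n = 3) in GFP, 9784 ± 21.3 (n = 2) in Klf4 and 19803 ± 955 (n = 2) in OSK. Against GFP the log2 change was 3.10 with OSK (limma adjusted p = 6.75e-14), 8.58-fold, and 2.08 with Klf4 (limma adjusted p = 1e-11), 4.24-fold. These changes placed CD55 152nd from the top in OSK and 421st in Klf4 among the 18828 features. OSK exceeded Klf4 by 1.02 (SE 0.08, limma adjusted p = 1.09e-07).

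The Sox2 and Oct4 lines were close to GFP for CD55. The Sox2 libraries lay above the GFP libraries, with a log2 change of 0.22 (limma adjusted p = 0.0203). That call was lost under 5 alternatives, with the highest limma adjusted p, 0.189, without Sox2 replicate 1. Oct4 overlapped GFP, with a change of 0.03 (95% interval -0.12 to 0.18, limma adjusted p = 0.812).

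CD59, the inhibitor of the membrane pore, showed the same order with smaller steps. It was 4592, 5326 and 5088 in GFP, 5236 and 5290.04 in Oct4, 5761 and 6002 in Sox2, 9314 and 9186 in Klf4, and 17737 and 17386 in OSK. Every Klf4 library exceeded every GFP, Oct4 and Sox2 library, and every OSK library exceeded every Klf4 library. OSK changed CD59 from GFP by 1.81 on the log2 scale (limma adjusted p = 1.95e-11), 3.51-fold, and Klf4 by 0.89 (limma adjusted p = 7.32e-08), 1.85-fold. OSK exceeded Klf4 by 0.92 (SE 0.08, limma adjusted p = 2.48e-07). Sox2 gave 0.24 (limma adjusted p = 0.0116), a call lost after TMM scaling over all features (0.0797) and without Sox2 replicate 2 (0.106). Oct4 gave 0.08 (limma adjusted p = 0.424). CD55 and CD59 moved together, with a Pearson r of 0.98 between log2 values over the 11 libraries, again points that share groups and factors. The ratio of CD55 to CD59 was 0.431 to 0.481 in the GFP, Oct4 and Sox2 libraries, 1.049 and 1.067 in Klf4, and 1.155 and 1.1 in OSK.

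CD46, the membrane cofactor for factor I, was 3177, 3028 and 3138 in GFP, 3726 and 3259.6 in Oct4, 5025 and 5097 in Sox2, 3773 and 3851 in Klf4, and 3728 and 3717 in OSK. All factor-line libraries lay above all GFP libraries, and the Sox2 libraries lay above the rest. Against GFP the log2 change was 0.70 with Sox2 (limma adjusted p = 3.56e-07), 1.63-fold. Klf4 gave 0.29 (limma adjusted p = 0.00276). OSK gave 0.26 (limma adjusted p = 0.00533), a call that TMM scaling over all features ended (0.0614). Oct4 gave 0.16 (limma adjusted p = 0.0662), which passed without GFP replicate 1 (0.0377) or without Oct4 replicate 2 (0.0194). OSK lay below Sox2, with a log2 difference of -0.44 (limma adjusted p = 0.000128), whereas OSK and Klf4 differed by -0.03 (limma adjusted p = 0.8). CD46 ran against the C1 inhibitor gene, with a Pearson r of -0.745 over 11 libraries, given as a description. The summed level of CD46, CD55 and CD59 was 9940 to 10838 in GFP, 22856 and 22835 in Klf4, and 41943 and 40231 in OSK.

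The promoters of the membrane regulators and of C1R are shown because CD55, CD59 and C1R rose in the lines that carry KLF4. CD46 was also called higher there, by less, with log2 changes of 0.29 in Klf4 and 0.26 in OSK. Its OSK call was lost after TMM scaling over all features. RefSeq (GRCh38.p14) gave a start site for 6 of the 9 genes, and the 250 bases before the start listed first were searched on both strands for a KLF-type motif, CCNCNCCC. The motif is in 53.4% of 35116 windows of this length, so a match is common and is a description, not a site. Capitals mark the matches in each stretch, written 5′ to 3′ on the strand of the gene. CD55 had 3 matches, CD59 had 2 (on the opposite strand), and CD46 and C1R had 1 each. Matches depend on the start used. At further starts listed for CD59 there were 4, 0 and 1 matches, at that of CD46 1 and at that of C1R 2. For CD46 the whole window is given (chr1:207751788-207752037, plus strand) and for CD59 the part before the annotated exons (chr11:33736492-33736729, minus strand). The CD55 and C1R windows lie partly or wholly in first exons of longer GENCODE transcripts, so 30 bases around each match are given, at chr1:207321428-207321457, chr1:207321479-207321508 and chr1:207321619-207321648 (plus strand) and at chr12:7092463-7092492 (minus strand).
CD55, most distant match: gCCCCACCCagcagtggagagagtgagtcc
CD55, middle match: tcctcctccttCCCCTCCCcactctccccg
CD55, match nearest the start: cccagcccagaCCCCGCCCaaagcactcat
CD59: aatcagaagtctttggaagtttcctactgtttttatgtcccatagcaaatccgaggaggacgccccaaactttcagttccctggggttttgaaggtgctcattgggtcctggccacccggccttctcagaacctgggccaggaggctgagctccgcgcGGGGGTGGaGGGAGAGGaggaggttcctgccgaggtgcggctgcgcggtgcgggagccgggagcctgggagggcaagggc
CD46: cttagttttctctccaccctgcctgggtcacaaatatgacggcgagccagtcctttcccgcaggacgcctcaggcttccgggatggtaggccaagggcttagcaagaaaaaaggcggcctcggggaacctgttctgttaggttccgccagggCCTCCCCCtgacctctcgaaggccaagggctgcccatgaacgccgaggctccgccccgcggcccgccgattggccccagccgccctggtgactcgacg
C1R: cagaaaaccctCCCCTCCCtgctgtgcatg

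Further motifs were sought in the same windows on both strands, and none overlapped a KLF match. The SOX motif CATTGT, in 9.3% of all windows, was in none of the CD55, CD59, CD46 and C1R windows. The OCT motif ATGCNAAT, in 2.7% of windows, was in that of C1R at 104 bases before the start, overlapping a C/EBP motif TTGCNNAA (in 9.1% of windows). A STAT-type motif TTCNNNGAA, in 6.6% of windows, was in those of CD59 and CFB, and an interferon-stimulated response motif (ISRE), in 3% of windows, was in that of CFB. CFI held none of the motifs, which also included an NF-kB motif (1.7% of windows) and AP-1 TGANTCA (6.6%). At further listed starts, a C1R window held the STAT-type motif and CD59 windows held C/EBP or AP-1 motifs. C3, C1S and SERPING1 were not in the promoter table used here.

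Levels were compared roughly between genes per kilobase of exon. The lengths join the exons of all annotated transcripts of a gene, not of those expressed here, so close ranks depend on them. The order in GFP by mean normalised count was C1R (565), CD59 (483), CD55 (391), CD46 (358), C1S (340.1), SERPING1 (268), C3 (10.5), CFI (1.09) and CFB (1.07). In OSK on the same scale CD55 (3352) and CD59 (1695) were ahead of C1R (1138), C1S (604), CD46 (427) and SERPING1 (296), and C3 (12.9) stayed far below. The ARPE-19 control line thus held transcripts of the C1 proteases and of the membrane regulators at levels well above that of C3.

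Read as a set, the 7 genes tested differed between the lines in number and direction. With Oct4, 2 were called (C1R and C1S, both lower), where 37.3% of all tested features were called and 17.2% were lower. With Sox2 all 7 tested were called, 3 higher (CD46, CD55 and CD59) and 4 lower (C1R, C1S, C3 and SERPING1), against a background of 41.6%, with 21.7% higher and 19.9% lower. With Klf4, 6 were higher and none lower, against 33.5% called, 17.6% higher and 16% lower. With OSK, 5 were higher and none lower, against 39.7% called and 19.7% higher. The median log2 change of the 7 genes was 0.03 with Oct4, -0.75 with Sox2, 0.89 with Klf4 and 0.83 with OSK, and that of all tested features lay between -0.02 and -0.01. These comparisons share the GFP libraries. Without GFP replicate 1 and OSK replicate 1 the counts were 2, 7, 6 and 4.

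**Figure D2:**
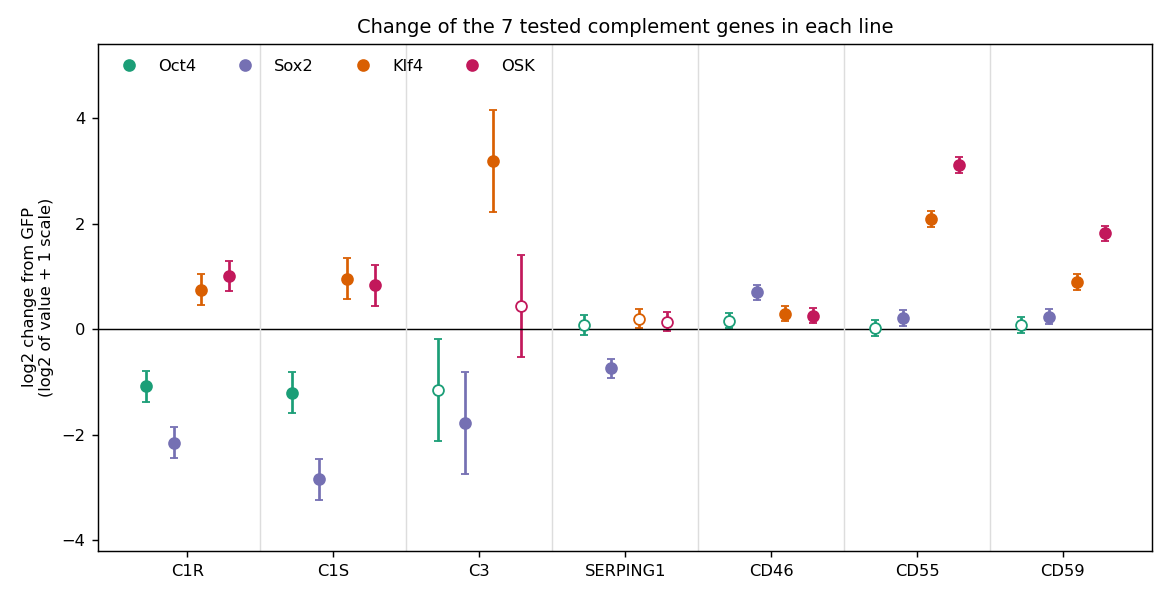
Log2 change from GFP (y axis) of each tested complement gene (x axis) in the Oct4, Sox2, Klf4 and OSK lines. Bars are 95% intervals from limma. Filled marks have an adjusted p under 0.05 and open marks do not. C1R and C1S lie below 0 in Oct4 and Sox2 and above 0 in Klf4 and OSK. Among the OSK changes, that of CD55 lies highest (3.10).

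Set against the single-factor lines, OSK had the fewest calls against Klf4. Of the 7 genes, 3 were called between OSK and Klf4: CD55 and CD59 were higher in OSK and C3 was lower, where 21.5% of all features were called (9.56% higher, 11.9% lower). Against Oct4, 5 were higher in OSK (C1R, C1S, C3, CD55 and CD59) and none lower, with 40.3% of all features called and 18.4% higher. The C3 call was the least secure of these, with a log2 difference of 1.6 (limma adjusted p = 0.0173). It was lost without Oct4 replicate 1 (1.29, limma adjusted p = 0.138), without OSK replicate 1 (1.15, 0.186; 0.0723 with GFP replicate 1 also left out), with no filter (0.0581) and with DESeq2 (adjusted p = 0.0702). Against Sox2, 6 were higher in OSK and CD46 was lower, with 40.5% of all features called, 20% higher and 20.5% lower. The C1S mean was 12.4-fold and the C1R mean 8.91-fold higher in OSK than in Sox2.

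The single-factor lines differed from each other as well. Between Oct4 and Sox2, C1R, C1S and SERPING1 were higher in Oct4 and CD46 was higher in Sox2, where 33.4% of features were called (18% higher in Oct4, 15.4% lower). The C1R difference was 1.06 (limma adjusted p = 3.52e-05), the C1S difference 1.64 (limma adjusted p = 9.57e-06) and the SERPING1 difference 0.82 (limma adjusted p = 4.07e-06). CD55 and CD59 lay higher in Sox2 than in Oct4 without overlap, by log2 differences (Oct4 minus Sox2) of -0.19 (limma adjusted p = 0.0672) and -0.16 (0.122), which passed without GFP replicate 1 (0.023 and 0.0266) and without it and OSK replicate 1 (0.0337 and 0.0365). Between Oct4 and Klf4, 5 were lower in Oct4 (C1R, C1S, C3, CD55 and CD59), against 41.7% called, 21.8% higher and 20% lower. Between Sox2 and Klf4 all 7 were called, CD46 higher and 6 lower in Sox2, against 40.8% called, 20.1% higher and 20.7% lower. The widest gaps in that pair were a 33.6-fold higher C3 mean, or 21.4-fold without Klf4 replicate 1, and a 13.8-fold higher C1S mean in Klf4.

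To ask whether OSK lay where the single-factor changes add up, the Oct4, Sox2 and Klf4 log2 changes were summed and the OSK change was compared with that sum. For C1R the sum was -2.48 and the OSK change 1.01, a difference of 3.49 (SE 0.27, limma adjusted p = 8.4e-08). For C1S the sum was -3.09 and the OSK change 0.83, a difference of 3.92 (SE 0.37, limma adjusted p = 6.34e-07). For these proteases OSK thus lay on the other side of GFP from the sum, on the side of Klf4. The factors were not at equal levels in this contrast. POU5F1 and SOX2 were lower in OSK than in the Oct4 and Sox2 lines, whereas KLF4 was at a like level. The part of factor level in these differences was not tested. A change that all factor lines share against GFP is also counted for every single-factor line in the sum, and it cannot be told apart here. CD46 lay below its sum, with a difference of -0.90 (limma adjusted p = 6.39e-05). CD55 lay above by 0.77 (limma adjusted p = 0.000444), CD59 by 0.61 (limma adjusted p = 0.00247) and SERPING1 by 0.62 (limma adjusted p = 0.0104). C3 differed by 0.20 (limma adjusted p = 0.89), with a sign that changed when single libraries were left out. In all, 5 of 7 lay above the sum and 1 below, where 35.9% of features were called, 15.6% above and 20.3% below. TMM scaling over all features left 3 of the 6 calls, since CD55 (0.0634), SERPING1 (0.164) and CD59 (0.196) no longer passed by limma adjusted p. That scaling moved the median of all features in this contrast from -0.02 to -0.14.

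**Figure D3:**
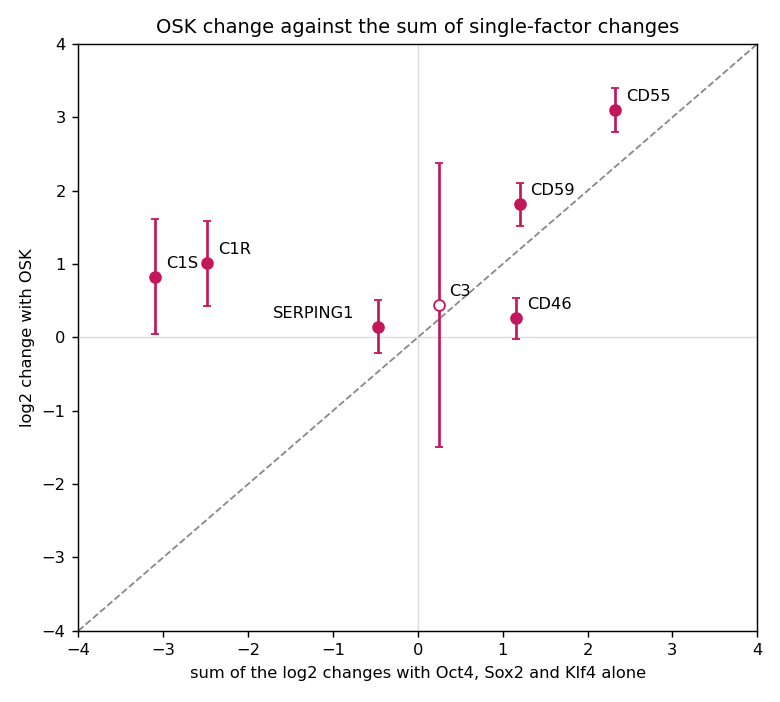
Log2 change of OSK from GFP (y axis) against the summed log2 changes of the 3 single-factor lines (x axis) for the 7 tested complement genes; bars are the 95% interval of the difference, drawn about the OSK value, and the dashed line is equality. C1R and C1S lie far above the line with sums of -2.48 and -3.09, CD46 lies below it, and C3, the open mark, is not distinguishable from it.

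The wider complement system was examined through a list of 51 other genes, of which 20 passed the filter. With Oct4, 2 rose and 5 fell; with Sox2, 1 rose and 8 fell; with Klf4, 2 rose and 5 fell; and with OSK, 1 rose and 6 fell. The counts called in either direction are near the shares of all tested features, which were 37.3%, 41.6%, 33.5% and 39.7% in that order. Such totals are not a result about the list. By direction, 20.1%, 21.7%, 17.6% and 19.7% of all tested features were higher, and 17.2%, 19.9%, 16% and 20% were lower. Whether the list leaned to lower more than all features was not tested. The medians of the log2 changes of the 20 listed genes were -0.46, -0.80, -0.48 and -0.28, against -0.02 to -0.01 over all features. Most listed genes were not tested, and C1QA, C1QB and C1QC were among those below the filter. Leaving out Klf4 replicate 2 reduced the 7 Klf4 calls to 4, and leaving out either OSK replicate reduced the 7 OSK calls to 4. Without GFP replicate 1 the OSK calls were 9 and the Sox2 calls 11, and without GFP replicate 1 and OSK replicate 1 they were 6 and 11.

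MASP2 and C5 moved in opposite directions. MASP2, the lectin pathway protease that cleaves C4 and C2, had a mean of 189 ± 18.9 (SD, n = 3) in GFP. It fell with Oct4 (log2 change -0.65, limma adjusted p = 0.00453), Sox2 (-0.99, 0.0001) and Klf4 (-0.61, 0.00742, but 0.0753 without Klf4 replicate 2). With OSK it was -0.44 (limma adjusted p = 0.0369), a call lost under 9 alternatives. Its limma adjusted p was 0.1026 without GFP replicate 1, 0.0832 without GFP replicate 3, 0.0845 without OSK replicate 1, 0.1995 without OSK replicate 2 and 0.161 without GFP replicate 1 and OSK replicate 1. C5, the first component of the membrane pore, was 50.6 to 72.5 in GFP and above that in every factor library, from 88.1 upward. The log2 changes were 0.87 with Sox2 (limma adjusted p = 0.00121), 0.89 with Klf4 (0.00147) and 0.99 with OSK (0.000441). Oct4 gave 0.61 (limma adjusted p = 0.0166), a call lost under 7 alternatives, among them without either Oct4 replicate (0.0852 and 0.068) and without GFP replicates 2 (0.0592) or 3 (0.0514).

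Among fluid-phase regulators, CLU, which encodes clusterin, and VTN, which encodes vitronectin, keep the terminal complex off membranes, and C4BPB encodes a chain of C4b-binding protein. CLU was 6493, 6509 and 7267 in GFP, 20355 and 17945 in Oct4, 2362 and 2742 in Sox2, 9203 and 8297 in Klf4, and 6972 and 6987 in OSK. It rose with Oct4 (log2 change 1.5, limma adjusted p = 1.23e-09), fell with Sox2 (-1.41, 1.78e-09) and rose with Klf4 (0.37, 0.00259, but 0.0575 without Klf4 replicate 1). The OSK libraries lay within the GFP range (0.05, limma adjusted p = 0.696). VTN was 254.9 to 312 in GFP, 94.1 and 143 in Oct4, 19.1 and 48.8 in Sox2, 221 and 198 in Klf4, and 159 and 149.6 in OSK. It fell with Oct4 (-1.29, limma adjusted p = 0.00166) and Sox2 (-3.18, 1.5e-07). With OSK it was -0.88 (limma adjusted p = 0.0193), lost without GFP replicate 3 (0.0622) and without either OSK replicate (0.082 and 0.1201), and without GFP replicate 1 and OSK replicate 1 (0.1295). C4BPB was 64.5 to 69.8 in GFP, 55.7 and 35.5 in Oct4, 12.3 and 10.3 in Sox2, 23.1 and 12.6 in Klf4, and 3.25 and 9.90 in OSK. It fell with Sox2 (-2.48, limma adjusted p = 0.000188), Klf4 (-1.92, 0.00234) and OSK (-3.33, 1.12e-05). Of the 12 listed regulators of this kind 5 were tested, and all 5 fell with Sox2, where 19.9% of all tested features were lower.

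Other surface genes showed further patterns. CSMD1, a large membrane protein that inhibits complement, was 133 to 190.2 in GFP, 52.0 and 54.9 in Klf4, and 34.7 and 31.9 in OSK. It fell with Klf4 (-1.62, limma adjusted p = 3.64e-06) and OSK (-2.29, 5.11e-08), the lines in which CD55 and CD59 rose. In Sox2 it was 129.03 and 129.3 (-0.36, limma adjusted p = 0.126), which passed without GFP replicate 1 (-0.52, 0.0292) and without that library and OSK replicate 1 (0.0268). C1QBP, a mitochondrial and surface protein that binds C1q, fell in every line, with log2 changes of -0.55 in Oct4 (limma adjusted p = 2.39e-05), -0.40 in Sox2 (0.000425), -0.29 in Klf4 (0.00664) and -0.27 in OSK (0.00819). The Klf4 and OSK calls were lost after TMM scaling over all features (0.124 and 0.123), without Klf4 replicate 2 (0.051) and without OSK replicate 2 (0.107).

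**Figure D4:**
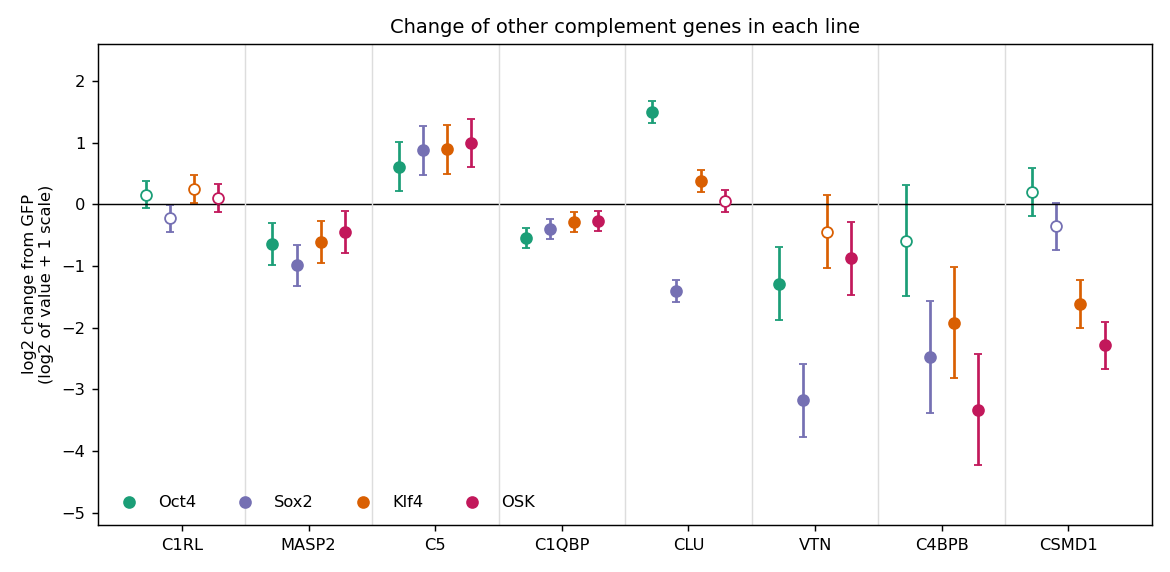
Log2 change from GFP (y axis) of 8 other complement genes (x axis) in the Oct4, Sox2, Klf4 and OSK lines. Bars are 95% intervals from limma. Filled marks have an adjusted p under 0.05. C5 lies above 0 and MASP2 and C1QBP below 0 in all lines. CLU lies on opposite sides of 0 in Oct4 (1.5) and Sox2 (-1.41).

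Genes of the cytokine pathways known to drive complement transcription were taken from a list of 33, of which 29 passed the filter. With Oct4, 12 rose and 4 fell; with Sox2, 9 rose and 7 fell; with Klf4, 10 rose and 8 fell; and with OSK, 10 rose and 7 fell. Over all tested features 37.3%, 41.6%, 33.5% and 39.7% were called in that order. Of these features, 20.1%, 21.7%, 17.6% and 19.7% were higher, and 17.2%, 19.9%, 16% and 20% were lower. The medians of the 29 log2 changes were 0.21, 0.08, 0.14 and 0.12, against -0.02 to -0.01 over all features. IRF1, an interferon-induced transcription factor, was 148 to 183 in GFP, 1719 and 1648 in Oct4, 138 and 126 in Sox2, 429 and 458 in Klf4, and 366 and 406 in OSK. It was thus highest in Oct4 (log2 change 3.39, limma adjusted p = 3.07e-12), a line in which C1R and C1S fell. IRF1 also rose with Klf4 (log2 change 1.46) and OSK (1.26), lines in which C1R and C1S rose. The part of IRF1 and the other listed pathway genes in the complement changes was not tested. SOCS3, the feedback inhibitor of cytokine signalling, was 374 to 418 in GFP and 52.7 and 73.6 in Sox2 (-2.65, limma adjusted p = 4.71e-10), and it fell in the other lines, with log2 changes of -0.82 to -1.29. CEBPD, an acute-phase transcription factor, was 128 to 199.6 in GFP and rose in every line, most with Oct4 (717.6 and 648, log2 change 2.17, limma adjusted p = 2.12e-08).

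Receptor genes of these pathways differed by line. IL6R was 72.8 to 106 in GFP and 1.12 and 4.28 in Sox2, which are 1 and 5 reads. In OSK it was 49.9 and 36.3, with a log2 change of -1.04 (limma adjusted p = 0.0248) that was lost without GFP replicate 1 (0.0613), GFP replicate 3 (0.06), OSK replicate 2 (0.203) or GFP replicate 1 and OSK replicate 1 (0.1016). IL1R1, the interleukin-1 receptor, was 16.2 to 21.9 in GFP, 54.6 and 81.3 in Oct4, and 98.7 and 114 in Sox2. It rose with Oct4 (1.83, limma adjusted p = 9.14e-05) and Sox2 (2.49, 2.82e-06). With Klf4 it was 0.80 (limma adjusted p = 0.0397), a call lost under 10 alternatives, among them without each Klf4 replicate (0.143 and 0.126), each Sox2 replicate (0.0579 and 0.059) and GFP replicates 2 (0.094) and 3 (0.089). TYK2, a kinase of interferon receptors, was 1953 to 2068 in GFP, 3001 and 3956 in Klf4, and 8384 and 7700.4 in OSK. It rose with Klf4 (0.78, limma adjusted p = 7.05e-06) and OSK (2.01, 1.68e-10), in the order that CD55 and CD59 showed.

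For each tested complement gene, the gene whose log2 values followed it most closely over the 11 libraries was sought among 12093 other genes. The Pearson r are descriptions, since all points share groups and factors. They were 0.99 for C1R with RHOU, 0.989 for C1S with NDRG1, 0.971 for C3 with SIGLEC1, 0.97 for SERPING1 with TRIM58, 0.981 for CD46 with RASSF9, 0.995 for CD55 with ZCCHC24 and 0.988 for CD59 with SUN2. SUN2, a protein of the nuclear envelope, had means of 4937 ± 319 (SD, n = 3) in GFP, 10091 ± 185 (n = 2) in Klf4 and 20597 ± 348 (n = 2) in OSK, much as CD59 did. SIGLEC1, a sialic acid receptor known from macrophages, was 287 ± 99.2 (n = 2) in Klf4 and at most 21.5 as a group mean elsewhere.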

How the data were processed

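RNA was measured in 11 ARPE-19 libraries grouped by title. Per the labels' protocols, RNA was extracted with TRIzol, selected with oligo(dT) and made into libraries with the NEBNext Ultra II kit. STAR 2.7.1a, featureCounts 1.6.2 and the builds GRCh38, hg38, GRCm38 and mm10 are named, with no role, per the submitters' processing notes. The annotation, the use of strand and the normalisation tool are not given in the sources used here. The deposited values are a signal of normalised counts: every value up to 200 was a whole multiple, within 0.0061, of a step per library (100%), so whole reads were recovered by division.

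Since the values were not raw counts, limma 3.58.1 (R 4.3.3, lmFit and eBayes with trend) was run on log2(value + 1), a scale that understates changes of low genes. The test covered features that reached a value of 10 in 2 or more libraries, in a single fit of all groups, with Benjamini-Hochberg adjustment over all of them and a threshold of 0.05. The procedure was tested on simulated data. edgeR 4.0.16 and DESeq2 1.42.0 on recovered reads, TMM scaling, pseudocounts, filters, the replicate number as a block and left-out replicates were alternatives. An exact permutation test of 3 against 2 libraries cannot go below p = 0.1. Replicates of each group differed by more than sampling noise. Positions and exon lengths came from GENCODE release 29.

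The complement genes and the lists were chosen with earlier results of these data known. All 9 complement genes are named. From the wider complement list, tested genes with a group mean of at least 50 could be named. From the signalling list, the 6 with the largest change from GFP past the threshold and the same minimum mean were named, and for each complement gene the most similar gene by Pearson r.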

Additional observations from a re-analysis of the deposited data

How the results depend on the processing

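Of 252 recomputed counts of complement genes called (11 comparisons), 251 stayed within 1.5 times the reported count. The exception was OSK against the sum of single changes after TMM scaling over all features, with 3 calls in place of 6. Leaving out each replicate in turn gave 2 to 3 calls for Oct4 against GFP, 5 to 7 for Sox2, 6 for Klf4 and 5 to 6 for OSK, and 6 for OSK against the sum. Replicate numbers did not pair the samples: deviations of same-numbered libraries correlated between -0.069 and 0.042, except 0.412 for GFP with OSK. With the replicate block, 3, 6, 6 and 5 complement genes were called against GFP, and C3 in Oct4 passed (-1.39, limma adjusted p = 0.0362). Directions turned only for differences that had not passed. When single replicates were left out, CD55 in Oct4 ran from -0.0175 to 0.0792, C3 in OSK from -0.0055 to 0.9773, CD46 in OSK against Oct4 from -0.0015 to 0.1914, and C3 against the sum from -0.8741 to 0.7866. OSK against Klf4 ran from -0.1256 to 0.0224 for SERPING1 and from -0.4002 to 0.1439 for C1S. IL6R in Oct4 ran from -0.1816 to 0.0877, TYK2 in Oct4 from -0.0842 to 0.0281 and TYK2 in Sox2 from -0.0051 to 0.0416. Without GFP replicate 1 and OSK replicate 1, an alternative chosen after seeing the data, CD55 in Oct4 was -0.0175, C3 against the sum -1.3211 and IL6R in Oct4 0.0877. After TMM scaling over all features, IL6R in Oct4 was 0.0011 and TYK2 0.0165. The cause of these changes was not tested. Depth limits CFB and CFI, with 0 to 12 reads a library.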
